A study of Mus musculus with 22 samples.

Results

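The 32 genes described here are 17 enzymes of glycolysis (Hk1, Hk2, Gpi1, Pfkl, Pfkm, Pfkp, Aldoa, Aldoc, Tpi1, Gapdh, Pgk1, Pgam1, Eno1, Eno2, Pkm, Ldha and Ldhb), 4 glucose and lactate transporters (Slc2a1, Slc2a3, Slc16a1 and Slc16a3), 4 kinases that regulate the pathway (Pdk1, Pdk3, Pfkfb3 and Pfkfb4) and 7 further genes of the response to low oxygen (Bnip3, Vegfa, Ddit4, Egln1, Egln3, Ankrd37 and Ndrg1). They were taken by gene symbol from the 55141 genes of the count tables, and all 32 passed the filter on low counts in every comparison. A second row with the symbol Aldoa held at most 0.864% of the counts of the row used and was left out.

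Polyadenylated RNA was sequenced from wild-type and Hox-/- mouse embryonic stem (mES) cells and from cells derived from them, in 22 libraries of 10 groups. Wild-type and Hox-/- mES cells (2 libraries each) were kept in 10% serum with LIF at 100 ng/ml, a MEK inhibitor at 1 µM and CHIR99021, an inhibitor of GSK-3, at 3 µM, and wild-type and Hox-/- endoderm cultures (3 libraries each) received 100 ng/ml Activin A and 3 µM CHIR99021 in 0.2% serum and were collected at 120 h. Gastruloids, which are aggregates of mES cells that form early embryonic tissues, had 2 libraries in each of 6 groups: wild type with Activin A at 96 h and at 120 h, Hox-/- with Activin A at 96 h and at 120 h, and wild type with Chiron at 96 h and at 120 h. Activin A is a ligand that drives endoderm formation, and Chiron is a name in use for CHIR99021, which activates Wnt signalling. The labels give no gastruloid doses, no oxygen level and no number of Hox-/- clones, so genotype and cell line cannot be told apart. They call the endoderm and gastruloid samples mixed cells, and nothing states that replicates were separate cultures, so p-values measure the spread between these samples. In such bulk RNA, fewer cells of a type and less RNA per cell cannot be told apart.

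Glycolysis splits glucose, which enters through Slc2a transporters, into pyruvate, and lactate dehydrogenase turns pyruvate into lactate that leaves through Slc16a transporters. When oxygen is low, the HIF transcription factors escape the prolyl hydroxylases encoded by the Egln genes and bind a short DNA motif near genes for glucose uptake, glycolysis, blood vessel growth and mitochondrial turnover. Pluripotent and early embryonic cells are known for high glycolysis in the presence of oxygen, and glycolytic activity is graded along the axis of the elongating embryo.

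The promoters of 5 members are shown because these genes lead the genotype differences described further on: Egln3 and Bnip3 were the members with the largest differences in mES cells, and Pfkp, Eno2 and Slc16a1 those in the endoderm cultures. The sequences are RefSeq promoters on GRCm38.p6, read 5′ to 3′ on the gene's strand and ending before the annotated gene. Capitals mark the core of the HIF response element, ACGTG or GCGTG, on either strand. The windows are chr12:54203875-54204124 (minus strand) for Egln3, chr7:138909507-138909756 (minus strand) for Bnip3, chr13:6648778-6649021 (minus strand) for Pfkp, chr6:124769674-124769923 (minus strand) for Eno2 and chr3:104638414-104638663 (plus strand) for Slc16a1.
Egln3: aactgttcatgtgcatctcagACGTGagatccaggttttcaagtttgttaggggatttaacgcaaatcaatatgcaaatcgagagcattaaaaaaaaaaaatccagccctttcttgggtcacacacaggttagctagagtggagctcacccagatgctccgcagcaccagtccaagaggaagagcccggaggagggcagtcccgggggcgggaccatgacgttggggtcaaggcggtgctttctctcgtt
Bnip3: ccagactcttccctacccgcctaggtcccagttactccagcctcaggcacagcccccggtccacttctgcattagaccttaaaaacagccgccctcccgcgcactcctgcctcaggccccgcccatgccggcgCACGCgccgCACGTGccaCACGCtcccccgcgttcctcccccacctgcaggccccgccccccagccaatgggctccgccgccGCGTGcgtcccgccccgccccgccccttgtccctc
Pfkp: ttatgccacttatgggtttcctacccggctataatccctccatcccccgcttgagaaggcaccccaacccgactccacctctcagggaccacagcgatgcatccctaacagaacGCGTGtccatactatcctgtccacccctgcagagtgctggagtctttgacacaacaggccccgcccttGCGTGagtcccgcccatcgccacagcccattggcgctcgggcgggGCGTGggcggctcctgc
Eno2: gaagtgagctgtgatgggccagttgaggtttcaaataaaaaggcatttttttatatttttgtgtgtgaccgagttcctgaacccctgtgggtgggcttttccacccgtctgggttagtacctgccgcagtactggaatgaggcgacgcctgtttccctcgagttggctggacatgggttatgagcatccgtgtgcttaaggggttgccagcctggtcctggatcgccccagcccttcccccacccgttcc
Slc16a1: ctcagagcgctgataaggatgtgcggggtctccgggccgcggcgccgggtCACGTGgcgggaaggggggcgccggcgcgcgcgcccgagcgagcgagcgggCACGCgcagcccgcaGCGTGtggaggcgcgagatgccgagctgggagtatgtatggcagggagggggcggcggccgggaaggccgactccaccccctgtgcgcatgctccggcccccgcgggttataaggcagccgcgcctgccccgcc
The motif occurs 5 times before Bnip3, 4 times before Slc16a1, 3 times before Pfkp, 1 time before Egln3 and not in the window of Eno2. In Bnip3 and Slc16a1 a CACGTG hexamer holds the motif on both strands and counts as 2 overlapping matches. Of the 32 members, 30 were matched in the RefSeq table, with 44 promoters. At least 1 match lay in the 250 bases before the start site in 35 of these 44 promoters (79.5%), against 38.6% of the 32851 promoters in the table. Windows of the same gene can overlap, as for Aldoa and Eno1, so that a site can count in more than 1 promoter. By gene, 27 of the 30 members (90.0%) had a match, against 41.5% of all genes. The members' promoters were also richer in G and C, with a median of 61.0% against 52.4% for all promoters. The part of base composition in the motif count was not tested, and a match is a description of the sequence, not a bound site.

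Total counts per library ranged from 9108085 to 28819301, and the gastruloid libraries of 120 h (9108085 to 11930416) were shallower than those of 96 h (14953662 to 28819301). Summed over 39 Hox genes, CPM (counts scaled by the library total) were lower in every Hox-/- group than in its wild-type counterpart, at 0.448 to 1.34 against 30.4 to 35.7 in mES cells, 22.5 to 28.6 against 828.5 to 876.7 in endoderm, 102 to 104 against 625 to 660.5 in Activin A gastruloids at 96 h and 63.8 to 69.5 against 1167 to 1190 at 120 h. The sample titles call the mutant BADC, and the labels do not spell this out or list the deleted genes. Summed definitive endoderm markers (9 genes) were 741 to 772 CPM in wild-type endoderm cultures and 30.3 to 32.3 CPM in wild-type mES cells. All 9 were detected in both. Krt8 (295 CPM), Krt18 (241 CPM) and Epcam (96.5 CPM) made up most of the sum in wild-type endoderm. The others there ranged from 1.11 CPM (Cer1) to 41.2 CPM (Cxcr4), with Sox17 at 24.5 CPM. Summed pluripotency markers (6 genes) were 5630 to 5635 CPM in wild-type mES cells.

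The members took 1.11 to 1.99% of all counts. The median member had 138 CPM, averaged over all libraries, and the median of the 18483 genes tested in any comparison had 13.7 CPM. CPM is not per length, and this difference in counts stands beside every share of calls given here, where its part was not tested. Between genes, levels were compared in FPKM, which divides by transcript length. Gapdh had the highest FPKM of the members in all 10 groups, with group means from 1908 to 3706, followed by Pkm or by Ldha, the lactate dehydrogenase subunit that favours lactate formation. Ldha was second in wild-type Activin A gastruloids at both times and in Hox-/- Activin A gastruloids at 96 h, with group means of 1914, 1040 and 1531 FPKM. Pfkp is listed at 0 FPKM in all 12 gastruloid libraries and in Hox-/- endoderm replicates 1 and 3, and Ankrd37 in 18 libraries, although their counts are not 0. Eno2 was also low, with group means from 0.854 to 4.57 FPKM over the 10 groups.

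The summed level of the 17 enzymes was compared across the 10 groups. In mean CPM, with SD, the sum was 15780 ± 269 (n = 2) in wild-type and 16815 ± 474 (n = 2) in Hox-/- mES cells, and 10296 ± 751 (n = 3) and 9680 ± 404 (n = 3) in the endoderm cultures. In gastruloids at 96 h it was 16660 ± 84.9 (n = 2) in wild type with Activin A, 16485 ± 148 (n = 2) in Hox-/- with Activin A and 14310 ± 354 (n = 2) in wild type with Chiron. At 120 h the values were 10760 ± 70.7, 12220 ± 56.6 and 10355 ± 262 (n = 2 each). The 120 h gastruloids and the endoderm cultures were thus all below the mES cells and the 96 h gastruloids. The mES, the endoderm and the gastruloid libraries come from separate count tables, so levels set across them are descriptive.

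**Figure D1:**
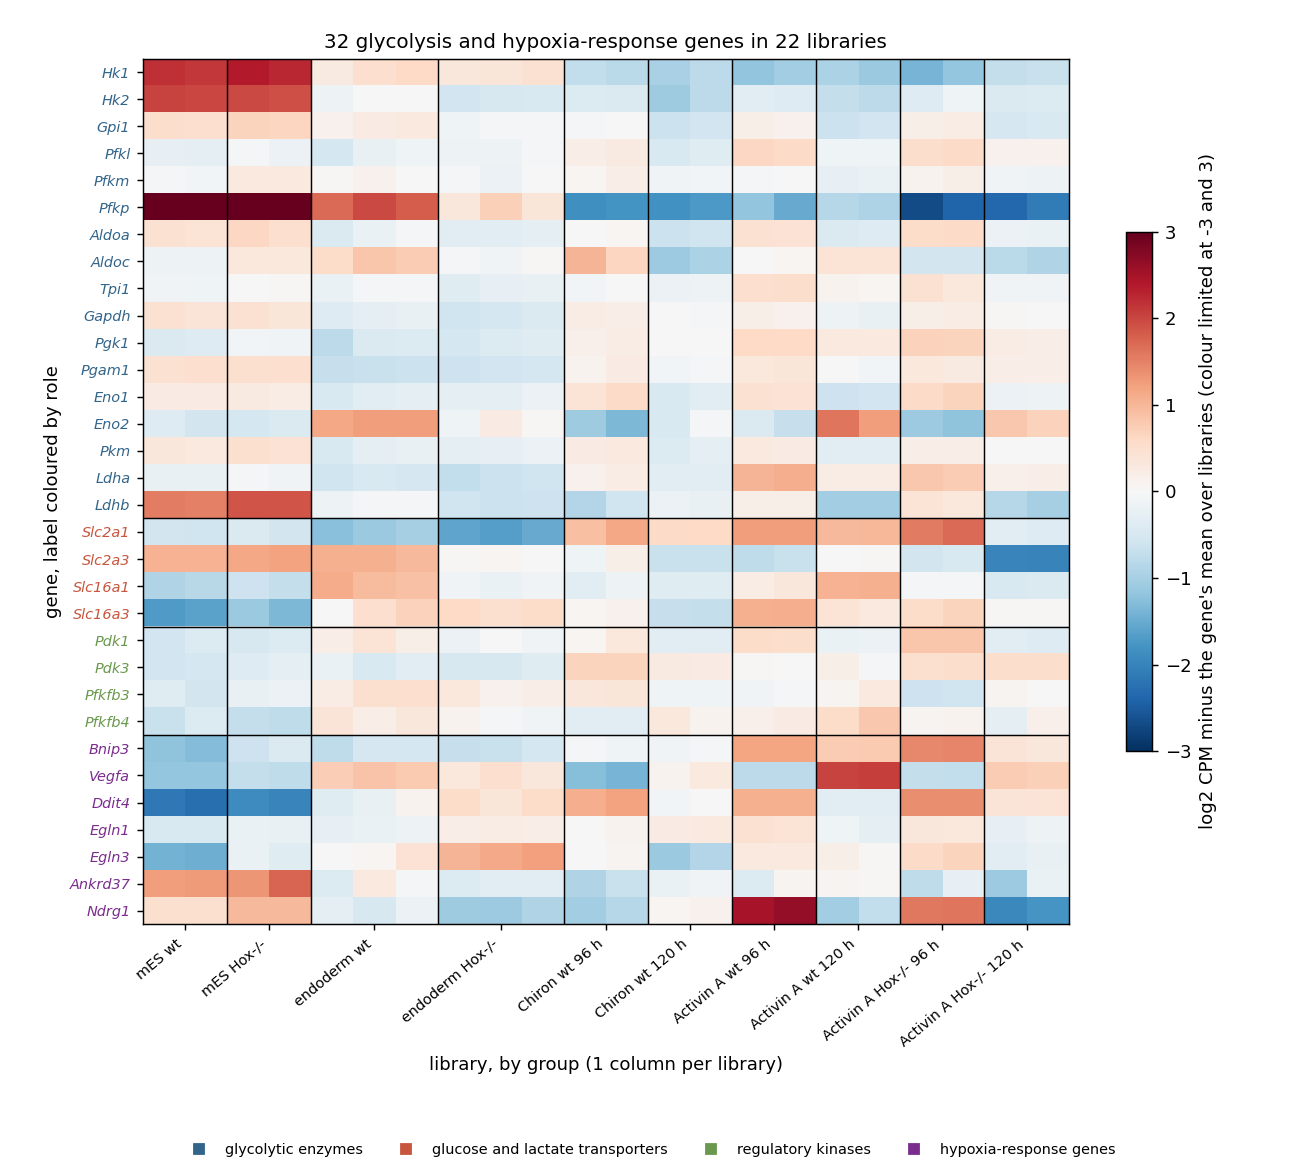
Each column is a library and each row a member, ordered by role. Colour is log2 CPM minus the gene's mean over the 22 libraries, limited to 3 log2 units on either side. Hk1, Hk2, Pfkp and Ldhb are high in the mES columns, and Ndrg1 in the Activin A columns of 96 h. Slc2a1 is above its mean in all gastruloid columns except those of Hox-/- at 120 h.

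The range of single members between groups differed widely. Pfkp, the platelet-type phosphofructokinase, had the widest range, from 279 CPM in Hox-/- mES cells to 3.72 in Hox-/- Activin A gastruloids at 96 h, which is 74.9-fold. The size of this range is uncertain, since Pfkp is listed at 0 FPKM in that lowest group. Its counts there may include reads of Pitrm1, a gene that overlaps it on the opposite strand. Ndrg1, a differentiation-associated gene induced by low oxygen, ranged 21.5-fold, Hk1 12.1-fold and Ddit4, an inhibitor of mTORC1, also 12.1-fold. Pfkm, the muscle-type phosphofructokinase, ranged least, from 57.3 to 81.6 CPM. Hox-/- mES cells were the highest group for 10 members and wild-type mES cells the lowest for 8.

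The shares of genes with the same function differed between cultures. Slc2a1 and Slc2a3 encode the glucose transporters GLUT1 and GLUT3. Slc2a1 made up 22.7% ± 0.48 (SD, n = 2) of the pair's FPKM in wild-type mES cells and 16.8% ± 1.85 (n = 3) in wild-type endoderm, but 77.7% ± 0.69 (n = 2) in wild-type Activin A gastruloids at 96 h. Ldhb, the subunit that favours pyruvate formation, made up 28.1% ± 0.45 (n = 2) of lactate dehydrogenase FPKM in wild-type mES cells and 4.51% ± 0.052 (n = 2) in wild-type Activin A gastruloids at 120 h. No gastruloid library of these groups overlapped with a wild-type mES library in either pair.

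**Figure D2:**
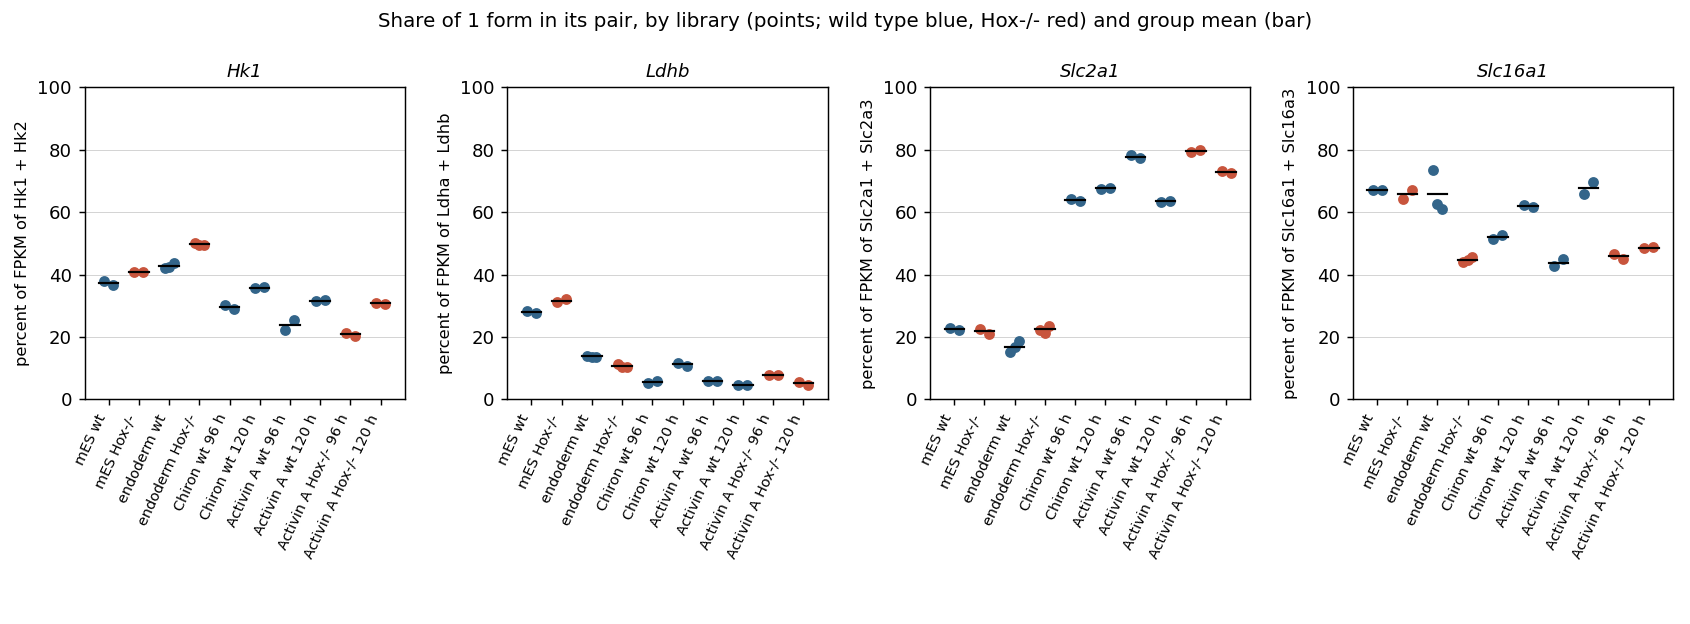
Share of a gene in the summed FPKM of its pair (percent, vertical axis from 0) in every library of the 10 groups, for Hk1 with Hk2, Ldhb with Ldha, Slc2a1 with Slc2a3 and Slc16a1 with Slc16a3. Points are libraries and bars group means. The Slc2a1 share lies between 63.5 and 79.6% as group means in all gastruloid groups and at 22.7% or below in mES and endoderm cultures.

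In mES cells the members were higher in Hox-/- than in wild type. At an adjusted p under 0.05, 21 of the 32 members were called, all of them higher, which is 65.6% of the members against 23.2% of the 13631 genes tested with 12.4% higher and 10.8% lower. The median log2 fold change was 0.185 for the members and 0.0006 for all genes. The called members were 12 of the 17 enzymes, 3 of the 4 transporters and 6 of the 7 hypoxia-response genes, but none of the 4 kinases, and 1 of them reached a 2-fold change, as did 2.35% of all genes. The count of 21 fell to 12 without wild-type replicate 1 and to 11 without wild-type replicate 2. DESeq2 called 13, and limma on FPKM called 4.

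Egln3, a prolyl hydroxylase that marks HIF for destruction and is itself induced by HIF, was at 5.11 and 4.97 CPM in wild-type mES cells and at 11.9 and 10.8 CPM in Hox-/- mES cells. The groups did not overlap, and the difference was 1.164 ± 0.15 on the log2 scale (SE, adjusted p = 3.64e-07), or 2.24-fold. Bnip3, a mitochondrial receptor for mitophagy, was at 22.7 and 21.2 CPM in wild type and at 34.2 and 38.6 CPM in Hox-/- (log2 fold change 0.72 ± 0.09, adjusted p = 8.95e-08). Ndrg1 was at 15.1 and 15.2 CPM in wild type and at 21.5 CPM in both Hox-/- libraries (0.50 ± 0.10, adjusted p = 0.000431). None of these 3 genes overlapped between genotypes.

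Among the enzymes, Aldoc, the brain-type aldolase, was at 21.2 and 20.99 CPM in wild-type and at 29.1 CPM in both Hox-/- mES libraries (0.46 ± 0.09, adjusted p = 0.000222). Ldhb was at 425 and 416 CPM against 542 and 541 CPM, with a log2 fold change of 0.36. Of the transporters, Slc16a3, the lactate exporter MCT4, led with a log2 fold change of 0.43 ± 0.08 (adjusted p = 0.00013). In all 3 genes every Hox-/- library was above every wild-type library. The members without a call were Hk2, Gapdh, Pgam1, Eno1, Eno2, Slc2a1, the 4 kinases and Ankrd37. Aldoc, Pgk1, Ldhb and Egln3 were called under every alternative analysis run. Summed pluripotency markers were at 5176 to 5211 CPM in Hox-/- and 5630 to 5635 CPM in wild type. Of these markers 4 of 6 were called lower in Hox-/-, and their part in the result was not tested.

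Other genes of these pathways moved both ways in mES cells. Of the other hypoxia-response genes, 5 of 13 tested were higher and 2 lower, and of 9 HIF subunits and regulators, 1 was higher and 1 lower. Stc2, a secreted glycoprotein, rose from 4.72 ± 0.47 to 11.1 ± 0.64 CPM (SD, n = 2 each, log2 fold change 1.23) and Bhlhe40, a transcriptional repressor, from 18.4 ± 2.4 to 34.1 ± 2.5 CPM (0.90). Pdk4, a kinase that switches off pyruvate dehydrogenase, rose by 0.80 on the log2 scale. The HIF hydroxylase gene Egln2 fell by 0.28.

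In endoderm cultures most called members were lower in Hox-/-. Of the 32 members 18 were called (56.2%, against 46.2% of all genes tested), 3 higher and 15 lower, while 23.1% of all genes were called in each direction. The share of members called was thus close to the background, and the split between directions was not. Of the members 3, all of them lower, reached 2-fold, against 10.3% of all genes. The median log2 fold change was -0.172 for the members and 0.0017 for all genes. Of the enzymes 8 were lower and none higher, of the transporters 3 were lower, of the kinases 2 were lower, and of the hypoxia-response genes 3 were higher and 2 lower. Without wild-type replicate 3 the split was 6 higher and 13 lower, and with offsets for GC content and length it was 8 and 15.

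Transporters of glucose and lactate were at lower levels. Slc2a3 was at 1361, 1345 and 1260 CPM in wild-type and at 664, 672.5 and 653 CPM in Hox-/- endoderm (log2 fold change -0.99 ± 0.05, adjusted p = 1.25e-09). Slc16a1, the lactate and pyruvate transporter MCT1, was at 483, 433 and 413 CPM against 207, 195 and 208 CPM (-1.11 ± 0.06, adjusted p = 2.44e-09), a 2.17-fold difference. Slc2a1 was at 194, 216 and 235 CPM against 155, 148 and 163 CPM, a log2 fold change of -0.46. In all 3 transporters the highest Hox-/- library was below the lowest wild-type library. Slc16a3 was not called, so that the share of Slc16a1 in the Slc16a1 and Slc16a3 FPKM was 65.7% ± 6.8 (n = 3) in wild-type and 44.8% ± 0.70 (n = 3) in Hox-/- endoderm.

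Of the enzymes, Pfkp was at 70.1, 85.1 and 75.6 CPM in wild-type and at 27.4, 35.3 and 27.6 CPM in Hox-/- endoderm (-1.35 ± 0.09, adjusted p = 4.1e-08). The FPKM of Pfkp is listed at 0 in Hox-/- replicates 1 and 3, which makes its limma estimates -3.29 and -5.48. Its counts may include reads of Pitrm1, which overlaps its last exon on the opposite strand. Pitrm1 averaged 202 CPM for wild-type and 188 for Hox-/- endoderm, and its part in the Pfkp difference was not tested. Eno2, the neuron-type enolase, was at 12.7, 13.6 and 13.6 CPM against 5.23, 6.77 and 5.79 CPM (-1.16 ± 0.12, adjusted p = 1.89e-06). Aldoc was at 34.3, 41.8 and 40.05 CPM against 22.3, 21.8 and 23.9 CPM (-0.77 ± 0.08, adjusted p = 4.05e-06). In FPKM these were the minor isoenzymes of their steps in wild-type endoderm, and none overlapped between genotypes. Ldhb was at 133, 143 and 141 CPM against 96.6, 93.4 and 95.9 CPM, and Hk2 had a log2 fold change of -0.46. Gpi1, Tpi1 and Gapdh were the other enzymes called lower. Aldoa, Pgk1, Pgam1, Eno1, Pkm, Ldha, Hk1, Pfkl and Pfkm were not called.

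The hypoxia-response genes moved both ways in endoderm. Egln3 was at 13.7, 14.3 and 18.6 CPM in wild-type and at 27.9, 30.3 and 32.1 CPM in Hox-/- endoderm (0.96 ± 0.11, adjusted p = 5.61e-06). Ddit4 was at 124.5, 138 and 172.5 CPM against 235, 206 and 235 CPM (0.65 ± 0.09, adjusted p = 7.31e-05). Egln1, the main oxygen-sensing prolyl hydroxylase, was also higher, with a log2 fold change of 0.41 ± 0.06. Ndrg1, at 8.92, 7.78 and 9.70 CPM in wild type and 5.17, 5.11 and 5.79 CPM in Hox-/-, was lower by 0.71 log2 units. Vegfa, which encodes the main growth factor of blood vessels, was at 111, 121 and 115 CPM against 84.1, 95.8 and 84.4 CPM and was lower as well. No library overlapped between genotypes in Egln3, Ddit4, Ndrg1 or Vegfa. Of the kinases Pdk1 and Pfkfb4 were lower, and Pdk3, Pfkfb3, Bnip3 and Ankrd37 were not called.

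Among HIF subunits and regulators 5 of 9 were higher in Hox-/- endoderm and 1 was lower. Hif1a, the oxygen-regulated subunit itself, was at 182 ± 2.6 CPM in Hox-/- and 141 ± 6.9 CPM in wild type (SD, n = 3 each, log2 fold change 0.38). Arnt2 had a log2 fold change of 0.92. Of 7 gluconeogenesis genes tested 5 were lower and 1 higher, Pck2 among the lower at -0.59. Definitive endoderm markers were lower in all 9 genes, at a summed 483 to 530 CPM in Hox-/- and 741 to 772 CPM in wild type. Pluripotency markers were lower in all 6, at 175 to 192 CPM in Hox-/- and 548 to 622 CPM in wild type. The part of either in the members' differences was not tested.

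The genotype difference itself differed between endoderm and mES cells, whose counts come from separate tables, so culture and table cannot be told apart. In the interaction, 17 of 32 members were called, all of them more negative in endoderm (53.1%, against 24.1% of all genes, 11.6% higher and 12.5% lower). The 6 members that differed by at least 2-fold, against 7.56% of all genes, were Pfkp, Slc16a1, Aldoc, Ndrg1, Eno2 and Slc2a3, with log2 differences from -1.56 to -1.10. With offsets for GC content and length, 3 members were called higher and 17 lower. Egln3 was not among the 17 members of the first count: its log2 difference between the genotype effects was -0.18.

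**Figure D3:**
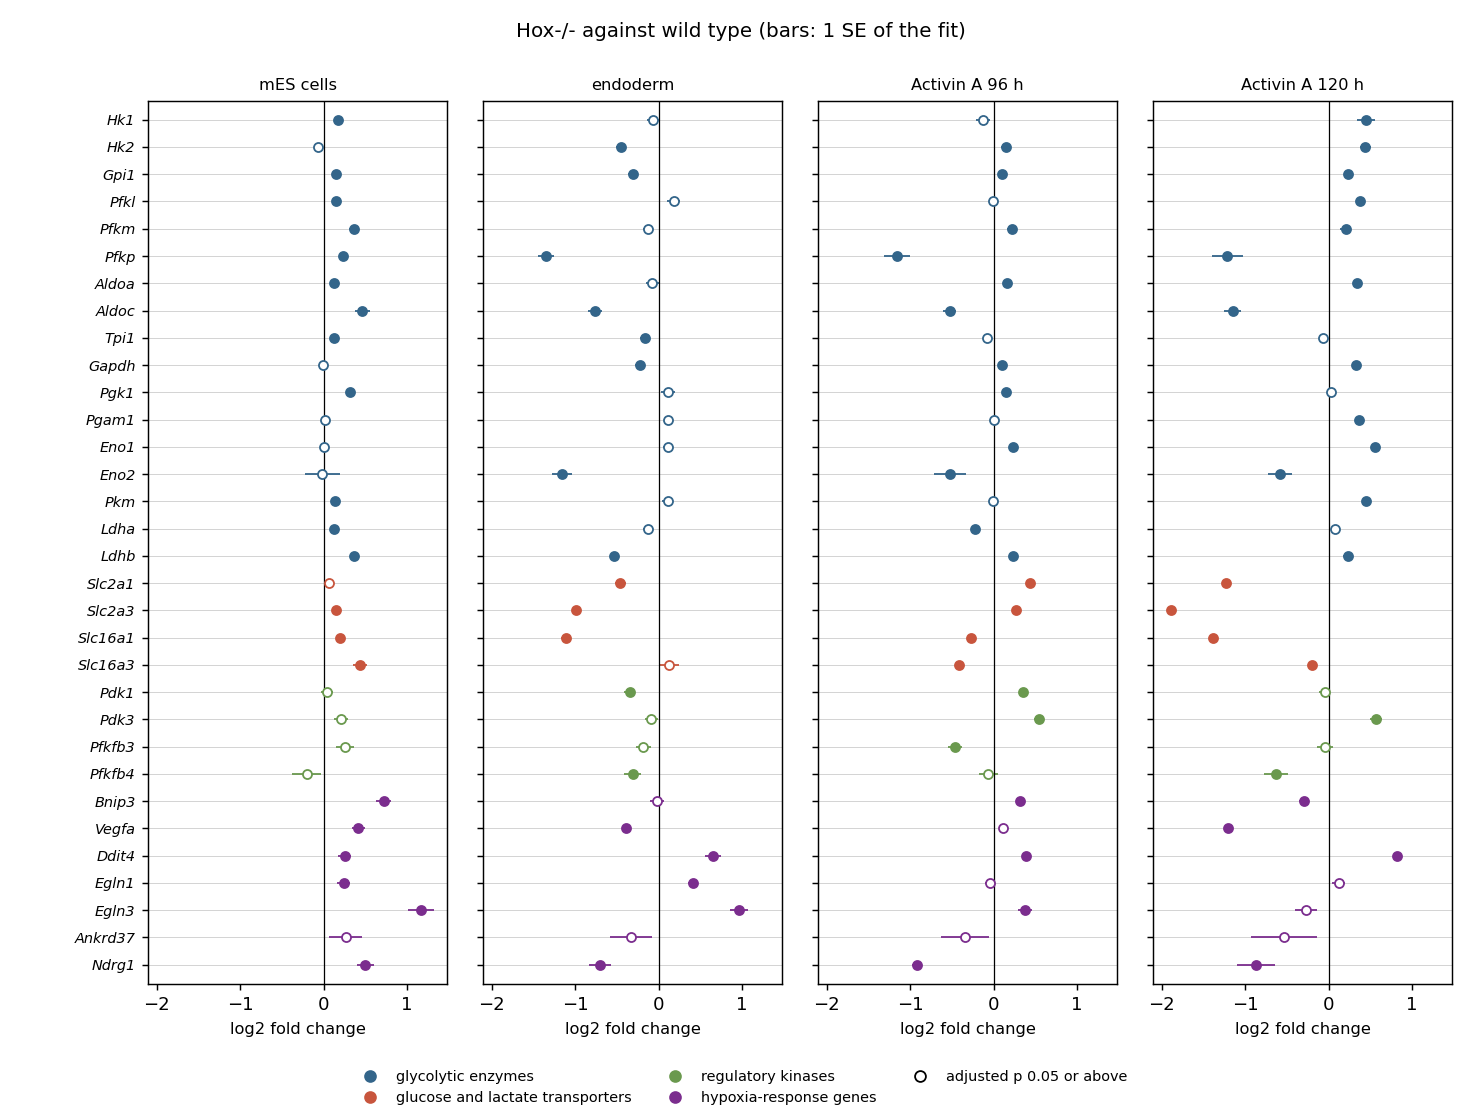
Log2 fold change of Hox-/- over wild type for the 32 members in mES cells, endoderm cultures, and Activin A gastruloids at 96 h and 120 h, 1 panel each. Points are estimates with bars of ±1 SE, and open points had an adjusted p of 0.05 or more. Called members all lie right of 0 in mES cells, and the transporters Slc2a1, Slc2a3 and Slc16a1 lie left of -1 at 120 h.

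In Activin A gastruloids at 96 h, 23 of the 32 members were called between genotypes (71.9%, against 38.9% of all genes), 15 higher and 8 lower in Hox-/- (all genes: 22.2% higher and 16.7% lower). The median log2 fold change was 0.048 for the members and 0.0348 for all genes. Differences were small, and 1 member reached 2-fold, against 6.57% of all genes. The kinase gene Pdk3, whose product inhibits pyruvate dehydrogenase, led those higher (0.54 ± 0.05, adjusted p = 7.36e-12), followed by Slc2a1, at 1116 and 1115 CPM in wild type and 1376 and 1527 CPM in Hox-/- (0.43 ± 0.04, adjusted p = 4.6e-13). Ddit4 was at 336 and 335 CPM against 424 and 422 CPM (0.39 ± 0.04, adjusted p = 7.39e-13). No library of these genes overlapped between genotypes. Egln3, at 16.8 and 16.97 CPM against 20.4 and 21.9 CPM, and Pdk1 were higher by 0.38 and 0.35 log2 units. Summed definitive endoderm markers were 727 to 820 CPM in wild type and 279 to 281 CPM in Hox-/-, with 8 of 9 genes called lower, and summed pluripotency markers 954 to 971 against 861 to 878 CPM, with 5 of 6 called lower. Their part in the members' differences was not tested.

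Pfkp was at 9.51 and 7.56 CPM in wild-type and at 3.37 and 4.08 CPM in Hox-/- gastruloids at 96 h (-1.16 ± 0.15, adjusted p = 2.14e-08). Pfkp counts there cannot be told apart from those of the overlapping Pitrm1. Mean Pitrm1 CPM at 96 h was 181 for wild-type and 177 for Hox-/- gastruloids. The part of Pitrm1 reads in the Pfkp difference was not tested. Ndrg1 was at 61.0 and 68.4 CPM against 32.9 and 33.0 CPM (-0.92 ± 0.06, adjusted p = 5.5e-18). Aldoc was at 23.5 and 24.3 CPM against 16.1 and 15.9 CPM, and the kinase and phosphatase gene Pfkfb3, whose product activates phosphofructokinase, had a log2 fold change of -0.47 ± 0.08. These members did not overlap between genotypes. Eno2 (4.22 and 3.53 against 2.67 and 2.47 CPM, -0.52 ± 0.19, adjusted p = 0.0286) lost its call without wild-type replicate 1 (adjusted p = 0.191), without Hox-/- replicate 1 (0.0771) and without Hox-/- replicate 2 (0.0999), and with DESeq2 (0.171). Hk1, Pfkl, Tpi1, Pgam1, Pkm, Pfkfb4, Vegfa, Egln1 and Ankrd37 were not called.

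At 120 h the genotype differences of the members in Activin A gastruloids were largest for Slc2a3, Slc16a1 and Slc2a1. Of the 32 members 24 were called (75.0%, against 50.4% of all genes), 13 higher and 11 lower in Hox-/- (all genes: 24.9% and 25.5%), with a median log2 fold change of -0.005 for the members and -0.0205 for all genes. All 4 transporters were lower, with a median of -1.31. Of the 17 enzymes 11 were higher and 3 lower, with a median of 0.24. The 6 members past 2-fold, against 14% of all genes, were all lower. With scaling by total counts alone the split of the calls was 11 higher and 14 lower, and the median of all genes moved to -0.132.

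Slc2a3 was at 650 and 661 CPM in wild-type and at 164 and 162 CPM in Hox-/- gastruloids at 120 h (-1.89 ± 0.04, adjusted p = 1.11e-36), a 3.72-fold difference. Slc16a1 was at 461 and 466.5 CPM against 162 and 166 CPM (-1.39 ± 0.04, adjusted p = 1.59e-31). Slc2a1 was at 909 and 937 CPM against 369 and 356.5 CPM (-1.24 ± 0.04, adjusted p = 2.31e-29). No library overlapped between genotypes in these 3 genes. Slc16a3 was lower by 0.19 log2 units, a call lost without wild-type 120 h replicate 1 (adjusted p = 0.111).

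The enzymes lower at 120 h were Aldoc, Pfkp and Eno2. Aldoc was at 30.9 and 31.1 CPM in wild type and at 13.4 and 12.4 CPM in Hox-/- (-1.15 ± 0.10, adjusted p = 2.01e-13). Pfkp was at 11.9 and 11.3 CPM against 4.22 and 5.05 CPM (-1.22 ± 0.18, adjusted p = 1.76e-07), under the limit given for 96 h. At 120 h Pitrm1 averaged 158 CPM for wild-type and 212 for Hox-/- gastruloids. Eno2 was at 17.4 and 13.5 CPM against 9.91 and 9.16 CPM. In all 3 enzymes the genotypes did not overlap. Higher were Eno1 (0.55 ± 0.04, adjusted p = 4.74e-17), Hk1 (0.45 ± 0.10, adjusted p = 0.000275) and Pkm, which makes pyruvate (0.45 ± 0.04, adjusted p = 1.15e-14). Eno1 shares sequence with its retrogene Eno1b, which was counted at 16.0 to 20.97% of the CPM of Eno1, and reads may have been split between them. Tpi1, Pgk1 and Ldha were not called.

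Of the regulators at 120 h, Vegfa was at 273.5 and 281 CPM in wild-type and at 113 and 110 CPM in Hox-/- gastruloids (-1.21 ± 0.05, adjusted p = 4.73e-28). Ddit4 was at 128.5 and 129 CPM against 210 and 212.5 CPM (0.82 ± 0.05, adjusted p = 5.15e-21), and Pdk3 was higher by 0.56 ± 0.07 log2 units (adjusted p = 1.09e-09). Ndrg1 was at 5.30 and 6.59 CPM against 2.85 and 3.18 CPM, and Pfkfb4 had a log2 fold change of -0.63. No library overlapped between genotypes in Vegfa, Ddit4 or Ndrg1. Pdk1, Pfkfb3, Egln1, Egln3 and Ankrd37 were not called, Egln3 with 15.6 and 14.1 CPM against 11.03 and 11.7 CPM.

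Cell type markers moved with genotype at 120 h. Summed definitive endoderm markers were 839 CPM in both wild-type libraries and 190 to 196 CPM in Hox-/-, with 7 of 9 genes lower. Summed presomitic and somitic mesoderm markers were 461 to 472 against 1207 to 1217 CPM, with 6 of 6 genes higher, and neural markers 98.5 to 101 against 33.2 to 33.6 CPM. Endothelial and blood markers were 26.6 to 33.9 against 47.7 to 49.5 CPM, with the embryonic globins Hba-x and Hbb-bh1 at 0. The part of these markers in the transporter and enzyme differences was not tested.

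Of the other genes of the pathway at 120 h, 4 of 7 tested glycolytic isoenzymes were lower and none higher. Hkdc1, a hexokinase-like gene, was at 9.20 ± 0.90 CPM in wild type against 3.06 ± 0.18 in Hox-/- (SD, n = 2 each, log2 fold change -1.48 ± 0.22). Of the HIF subunits and regulators 4 of 9 were higher and 1 lower in Hox-/-. Hif1a was at 194 ± 1.9 CPM in Hox-/- and 151 ± 1.0 CPM in wild type (0.48 ± 0.05). Epas1, the HIF2 subunit, was at 6.26 ± 0.65 CPM in Hox-/- and 19.7 ± 3.1 CPM in wild type (-1.54 ± 0.16). Of 10 genes tested for pyruvate entry and pyruvate dehydrogenase 4 were higher and 2 lower, Pdhx among the higher at 0.71. Other hypoxia-response genes split 2 higher and 4 lower of 16 tested.

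**Figure D4:**
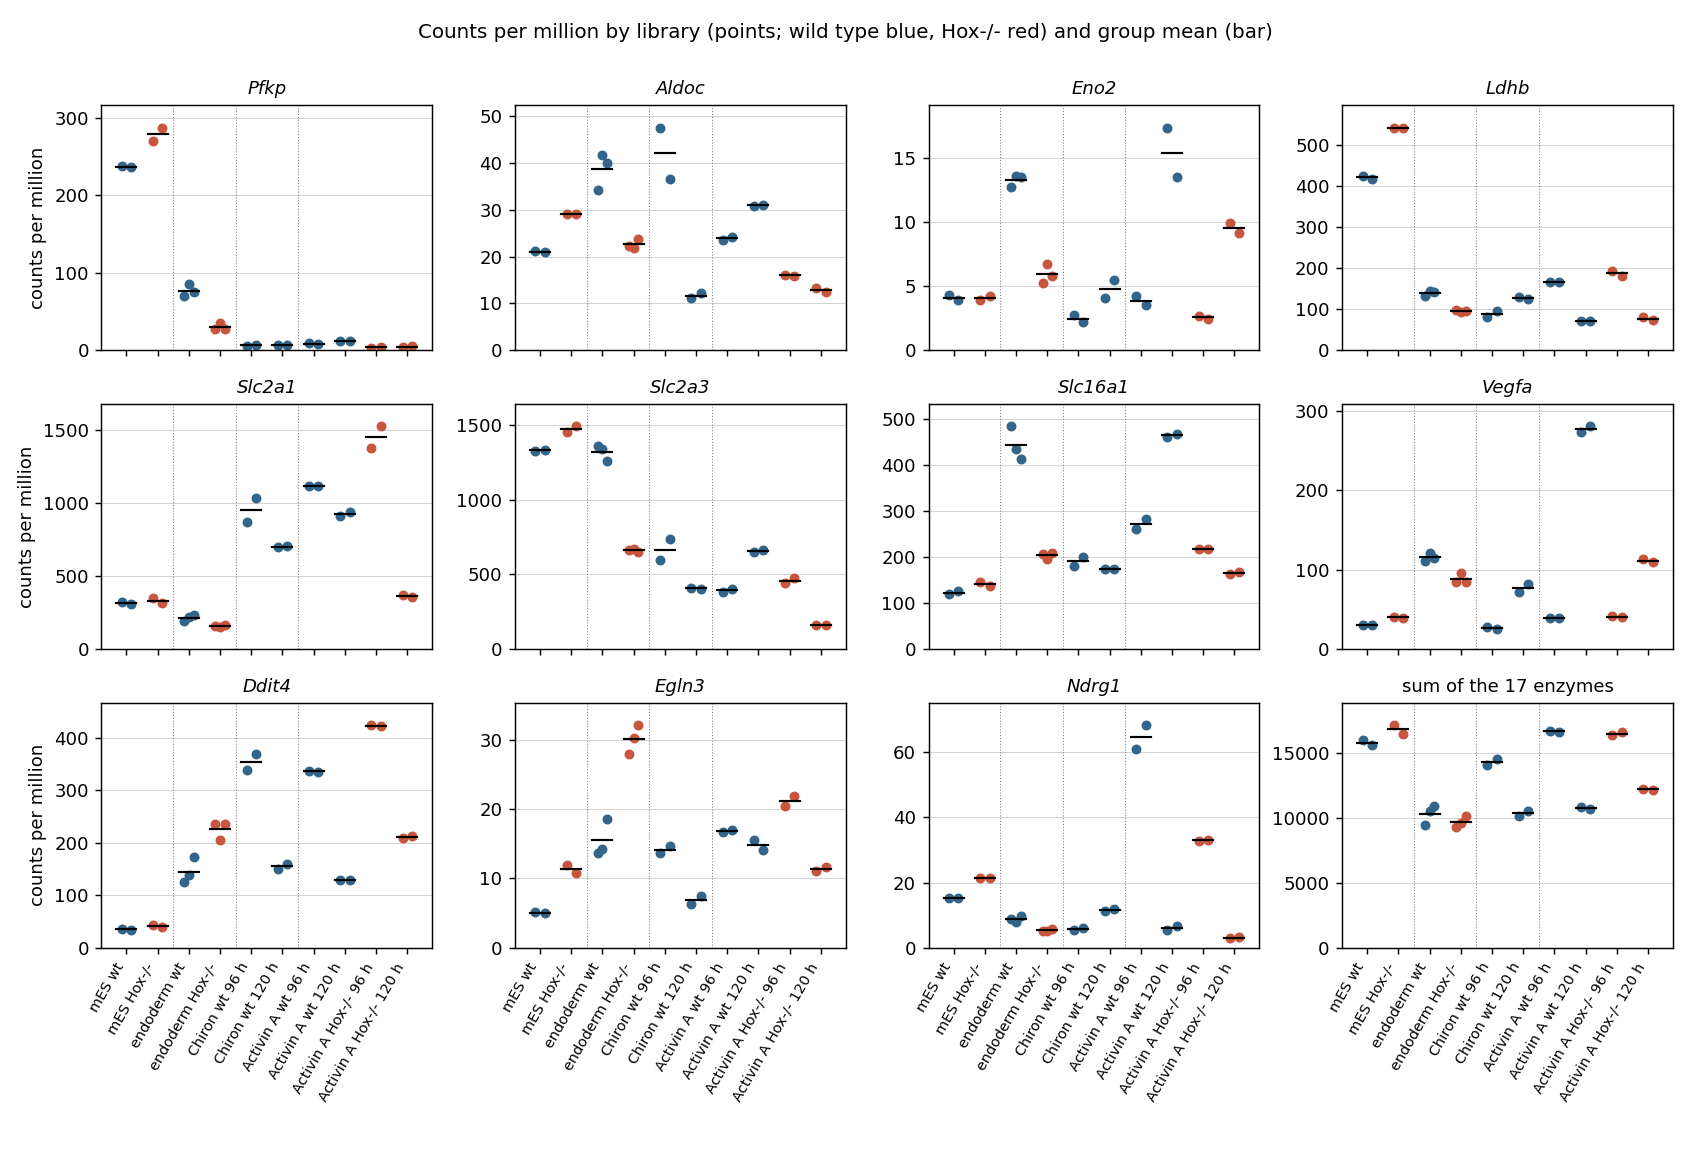
CPM (vertical axes from 0) in every library of the 10 groups for 11 members and for the sum of the 17 enzymes. Blue points are wild-type libraries, red points Hox-/- libraries and bars group means. For Slc2a1, Slc2a3, Slc16a1 and Vegfa the red points at 120 h lie far below the blue ones with Activin A, while the enzyme sum is 12220 CPM in Hox-/- and 10760 CPM in wild type.

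Across the 4 genotype comparisons, Ddit4 was higher in Hox-/- in 4 and Egln3, Gpi1, Pfkm, Aldoa and Ldhb were higher in 3. Gpi1 and Ldhb were called lower in the remaining comparison, that of endoderm. The sign of Gpi1 turned at 96 h in limma fits of FPKM. Pfkp, Aldoc, Slc16a1 and Ndrg1 were higher in Hox-/- mES cells and lower in the 3 other comparisons, and Eno2 was lower in the same 3, with the losses given for 96 h. In mES cells Slc16a1 lost its call without wild-type replicate 1 (adjusted p = 0.202) and with DESeq2 (0.114), Ndrg1 lost it with DESeq2 (0.0635), and Pfkp, Slc16a1 and Ndrg1 lost it with limma. These counts describe calls within each comparison.

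From 96 to 120 h the genotypes took different courses. The genotype by time interaction was called for 22 of 32 members (68.8%, against 38.9% of all genes), 13 higher and 9 lower (all genes: 18.7% and 20.2%). Of the 17 enzymes 10 were called in the direction of a smaller fall or larger rise in Hox-/-, and 3 of the 4 transporters in the other direction. At least 2-fold differences (11% of all genes) were found for Slc2a3 (-2.16), Slc2a1 (-1.67), Vegfa (-1.32) and Slc16a1 (-1.12).

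Within each gastruloid series most members were lower at 120 h than at 96 h. In wild-type Activin A gastruloids 29 members were called (90.6%, against 74.9% of all genes), 8 higher and 21 lower (all genes: 37.2% and 37.8%), with a median log2 fold change of -0.45 for the members and 0.0002 for all genes. In Hox-/- Activin A gastruloids 28 were called (87.5%, against 72.4%), 4 higher and 24 lower (all genes: 34.9% and 37.6%, median -0.45 against -0.0093). In wild-type Chiron gastruloids 27 were called (84.4%, against 61.7%), 5 higher and 22 lower (all genes: 28.5% and 33.2%, median -0.44 against -0.0431). At least 2-fold changes were found for 6, 9 and 4 members in this order, against 30.1%, 30.7% and 20.9% of all genes. In these 3 comparisons 17 members, 12 of them enzymes, were lower each time and 2, Vegfa and Eno2, higher each time; with offsets for GC content and length Pgam1 turned to 0.094 in Hox-/-. The 120 h libraries were shallower throughout, and time and depth cannot be told apart.

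Among the enzymes, Ldhb went down in Activin A gastruloids, from 165 and 166 to 70.7 and 71.6 CPM in wild type (-1.29). In Hox-/- it went from 193.5 and 181 to 80.9 and 73.1 CPM (-1.30). With offsets for GC content and length these log2 fold changes were -0.763 and -0.683. Ldhb went up in Chiron gastruloids, from 80.2 and 96.2 to 130 and 125 CPM (0.42). Aldoc had the reverse pattern in wild type, falling from 47.6 and 36.5 to 11.1 and 12.2 CPM with Chiron (-1.96 ± 0.12, adjusted p = 2.14e-12) and rising by 0.30 log2 units with Activin A. Eno1 fell by 1.12, 0.80 and 0.98 log2 units in wild-type Activin A, Hox-/- Activin A and Chiron gastruloids. Eno2, in contrast, rose by 1.93 and 1.87 log2 units in wild-type and Hox-/- Activin A gastruloids. Its rise with Chiron, from 2.73 and 2.22 to 4.11 and 5.51 CPM (0.85), lost its call without Chiron 120 h replicate 2 (adjusted p = 0.0655).

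Of the 4 transporters, Slc2a1, Slc2a3 and Slc16a1 diverged by genotype over time. Slc16a3 fell in both genotypes with Activin A, from a mean of 73.14 to 43.65 FPKM in wild type and from 53.12 to 35.45 FPKM in Hox-/-. Slc2a1 fell in wild-type Activin A gastruloids by 0.35 log2 units and in Hox-/- by 2.02 ± 0.04 (adjusted p = 2.22e-39). Slc2a3 rose by 0.66 in wild type and fell by 1.498 ± 0.04 in Hox-/-. Slc16a1 rose by 0.70 in wild type and fell by 0.42 in Hox-/-. With Chiron, Slc2a1, Slc2a3, Slc16a1 and Slc16a3 all fell, from 869 and 1035 to 697 and 707 CPM for Slc2a1, from 594 and 735 to 406.5 and 405 CPM for Slc2a3 and from 180 and 201 to 173 and 174 CPM for Slc16a1.

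Of the hypoxia-response genes, Vegfa rose from 38.7 and 39.1 to 273.5 and 281 CPM in wild-type Activin A gastruloids (2.76 ± 0.05, adjusted p = 3e-43), a 6.76-fold increase. It rose from 41.1 and 39.99 to 113 and 110 CPM in Hox-/- (1.44) and from 27.8 and 25.4 to 71.9 and 81.6 CPM with Chiron (1.42). Ndrg1 fell from 61.0 and 68.4 to 5.30 and 6.59 CPM in wild-type Activin A gastruloids (-3.52 ± 0.11, adjusted p = 1.18e-32) and by a like 3.47 log2 units in Hox-/-. With Chiron it rose from 5.30 and 6.00 to 11.3 and 11.98 CPM (0.92 ± 0.14). Ddit4 fell by 1.46, 1.02 and 1.30 log2 units in wild-type Activin A, Hox-/- Activin A and Chiron gastruloids. Pfkfb4 rose by 0.40 in wild-type Activin A gastruloids and by 0.44 with Chiron, and lost these calls without Activin A wild-type 120 h replicate 2 (adjusted p = 0.112) and Chiron 120 h replicate 1 (0.166).

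Other hypoxia genes also changed with time in Activin A gastruloids. Bhlhe40 fell from 27.1 ± 0.63 to 4.03 ± 0.51 CPM in wild type and from 41.5 ± 2.1 to 2.72 ± 0.41 CPM in Hox-/- (SD, n = 2 each). Pgf, a placental relative of Vegfa, rose from 0.824 ± 0.34 to 10.1 ± 0.042 CPM in wild type, and Epas1 from 2.84 ± 0.51 to 19.7 ± 3.1 CPM. Of the 16 other hypoxia-response genes tested, 8 were higher and 6 lower in wild type. Summed pluripotency markers were 954 to 971 CPM at 96 h and 48.0 to 49.1 CPM at 120 h in wild-type Activin A gastruloids, and 861 to 878 and 17.9 to 19.05 CPM in Hox-/-. In Chiron gastruloids they were 152 to 196 CPM at 96 h and 124 to 136.5 CPM at 120 h. Pou5f1 (824 CPM) and Nanog (108 CPM) made up most of the wild-type Activin A sum at 96 h. Of the 6 markers, 5 were called lower and 0 higher over time in wild-type Activin A gastruloids. In Hox-/- Activin A gastruloids 4 were lower and 1 higher, and with Chiron also 4 lower and 1 higher. Their part in the members' changes was not tested.

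**Figure D5:**
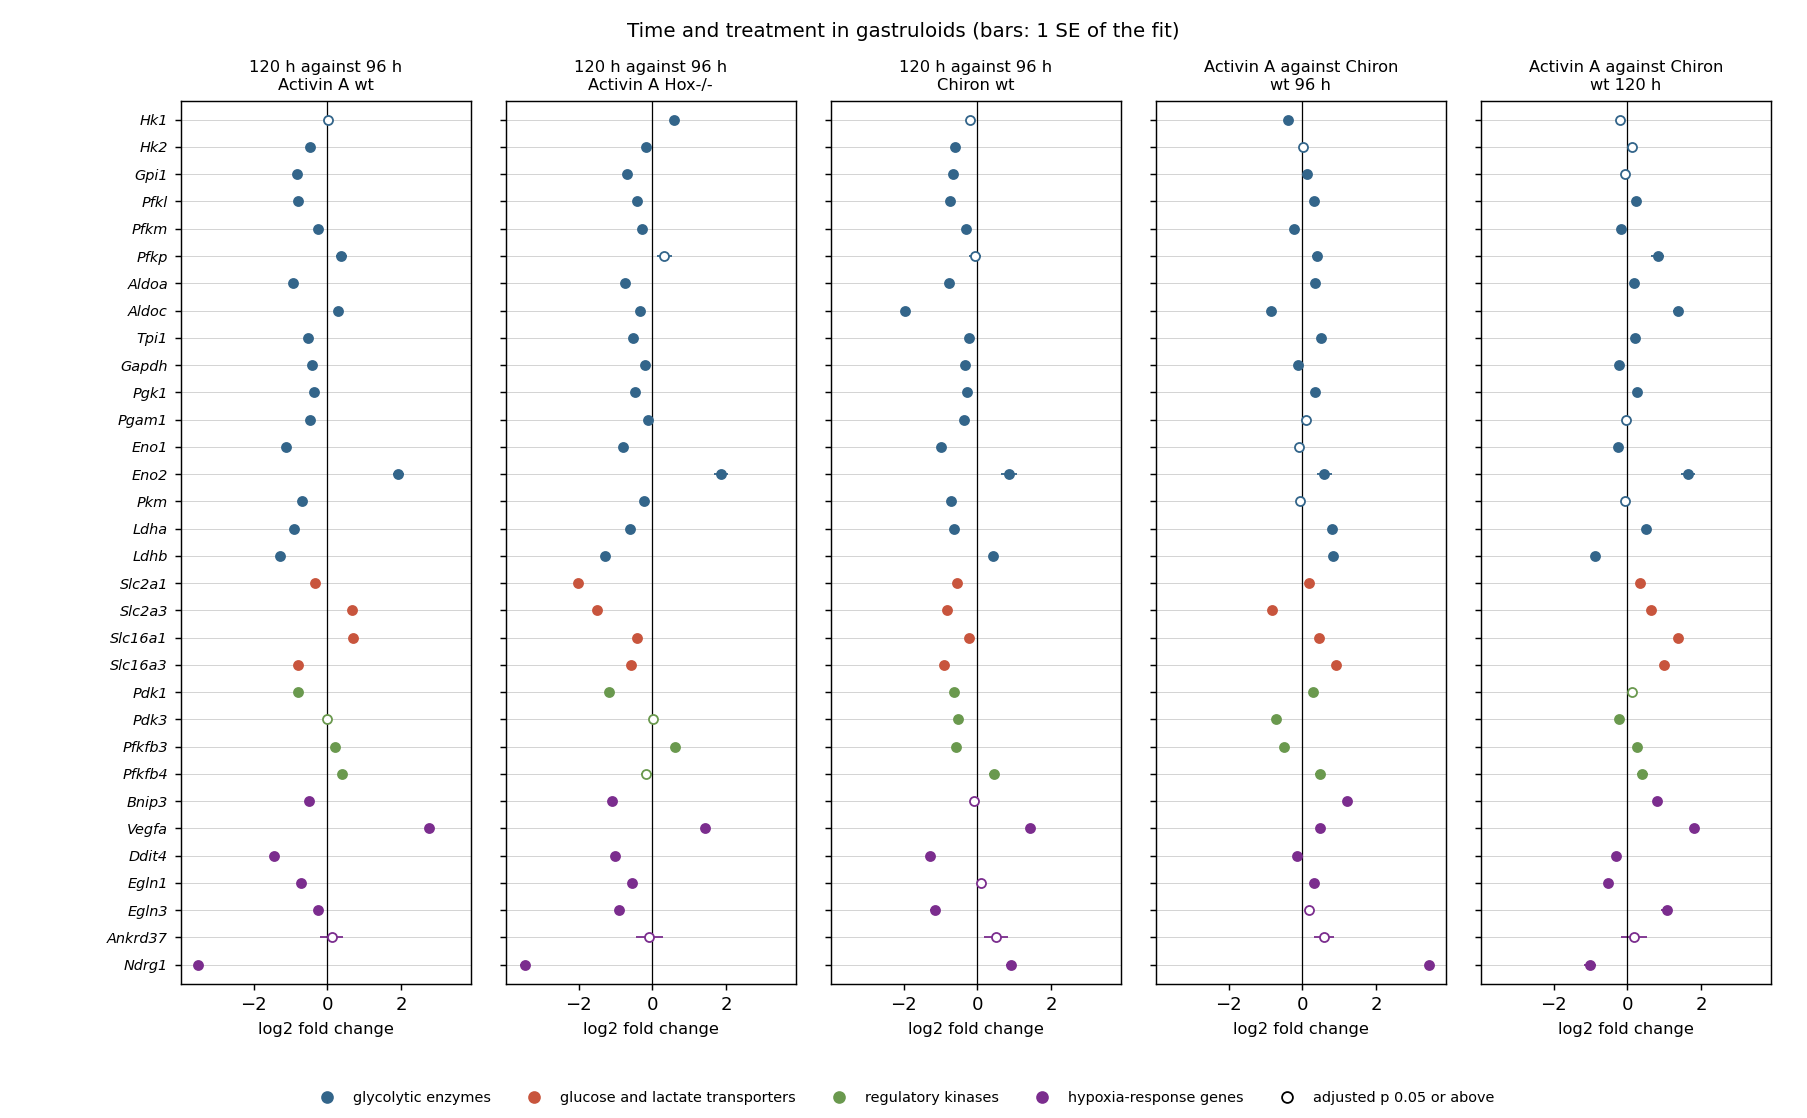
Log2 fold changes of the 32 members for 120 h over 96 h in wild-type Activin A, Hox-/- Activin A and wild-type Chiron gastruloids, and for Activin A over Chiron in wild type at 96 h and 120 h. Points are estimates with bars of ±1 SE, open where the adjusted p was 0.05 or more. Ndrg1 lies at -3.52 and -3.47 over time with Activin A and at 3.44 for Activin A over Chiron at 96 h.

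The wild-type gastruloids were also compared between Activin A and Chiron. These comparisons use the same wild-type libraries as the time comparisons, and the values of each are given on their own. At 96 h 26 members were called (81.2%, against 61.6% of all genes), 18 higher and 8 lower with Activin A (all genes: 31.3% and 30.2%), with a median log2 fold change of 0.293 for the members and -0.0012 for all genes. At 120 h 25 were called (78.1%, against 41.9%), 17 higher and 8 lower (all genes: 20.3% and 21.6%, median 0.179 against -0.0097). Past 2-fold were 2 members at 96 h and 6 at 120 h, against 19.7% and 13.2% of all genes.

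At 96 h Ndrg1 was at 61.0 and 68.4 CPM with Activin A and at 5.30 and 6.00 CPM with Chiron (3.44 ± 0.09, adjusted p = 1.41e-19), a 10.9-fold difference. Bnip3 was at 120 and 119 CPM against 50.9 and 48.0 CPM (1.21 ± 0.05, adjusted p = 2.81e-15). Ldha was at 3069 and 3188 CPM against 1644 and 1770 CPM (0.81 ± 0.05, adjusted p = 9.16e-13). The groups did not overlap in these genes. Slc16a3 and Ldhb were higher with Activin A by 0.92 and 0.84 log2 units. With offsets for GC content and length the Ldhb difference was 0.549. Aldoc (-0.87 ± 0.09, adjusted p = 2.11e-08), Slc2a3 (-0.82), Pdk3 (-0.72), Pfkfb3 (-0.49) and Hk1 (-0.40) were lower. Bhlhe40, another hypoxia-response gene, was at 27.1 ± 0.63 against 3.98 ± 0.81 CPM (SD, n = 2 each).

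At 120 h Vegfa was at 273.5 and 281 CPM with Activin A and at 71.9 and 81.6 CPM with Chiron (1.81 ± 0.06, adjusted p = 8.18e-17). Eno2 was at 17.4 and 13.5 CPM against 4.11 and 5.51 CPM (1.65 ± 0.19, adjusted p = 1.96e-07). Slc16a1 was at 461 and 466.5 CPM against 173 and 174 CPM (1.37 ± 0.06, adjusted p = 1.47e-15). These 3 genes did not overlap between treatments. Aldoc (1.37 ± 0.14, adjusted p = 3.04e-08) and Egln3 (1.06 ± 0.15, adjusted p = 2.57e-06) were also higher with Activin A. Ndrg1, higher with Activin A at 96 h, was lower at 120 h, at 5.30 and 6.59 CPM against 11.3 and 11.98 CPM (-1.02 ± 0.17, adjusted p = 2.77e-05), as was Ldhb at 70.7 and 71.6 CPM against 130 and 125 CPM (-0.89 ± 0.07, adjusted p = 7.69e-10).

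The treatment by time interaction was called for 16 members of 32, against 39.6% of all genes, with 8 in each direction (all genes: 21.7% and 18%), a share near the background. Ndrg1 had the largest log2 difference, -4.46 ± 0.19. Aldoc (2.23 ± 0.17), Slc2a3 (1.46 ± 0.09), Vegfa (1.32 ± 0.09), Eno2 (1.05 ± 0.28) and Ldhb (-1.73 ± 0.10) also differed by at least 2-fold, as did 14% of all genes. Definitive endoderm markers were 727 to 820 CPM with Activin A and 179 to 209 CPM with Chiron at 96 h, and 839 against 89.2 to 89.3 CPM at 120 h. Presomitic and somitic mesoderm markers were 164 to 176 against 1335 to 1554 CPM at 96 h and 461 to 472 against 874 to 913.5 CPM at 120 h. Their part in the members' differences was not tested.

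Endoderm cultures were compared with the mES cells of the same genotype. The counts of mES cells and endoderm come from separate tables joined for this fit, so culture and table cannot be told apart. In wild type 27 members were called (84.4%, against 79.9% of all genes), 11 higher and 16 lower in endoderm (all genes: 41.6% and 38.3%), with a median log2 fold change of -0.136 against 0.0675. In Hox-/- 29 were called (90.6%, against 80.6%), 10 higher and 19 lower (all genes: 42.7% and 37.9%, median -0.44 against 0.0951). Past 2-fold were 12 and 14 members, against 42.6% and 44.3% of all genes. The shares are near the background in wild type. Scaling by total counts alone moved the median of all genes in wild type from 0.0675 to 0.185 and the split of the members to 14 higher and 14 lower. The members that led the falls were Hk2 (-2.18 ± 0.05 in wild type and -2.55 in Hox-/-), Hk1 (-1.80 and -2.02), Pfkp (-1.74 and -3.29) and Ldhb (-1.71 and -2.59). Of the enzymes 12 were lower and 2 higher in wild type, and 15 were lower and 1 higher in Hox-/-.

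Of the members higher in endoderm, Slc16a3 was higher by 1.96 log2 units in wild type and 1.68 in Hox-/-. Its counts may include reads of Csnk1d, which overlaps it on the opposite strand. Csnk1d was at 142 CPM in mES cells and 219 CPM in endoderm in wild type, and at 140 and 248 CPM in Hox-/-. Ddit4 was higher by 1.93 and 2.35, from 36.4 and 33.5 CPM in wild-type mES cells to 124.5, 138 and 172.5 CPM in wild-type endoderm. Vegfa was higher by 1.82 and 1.05, from 30.2 and 30.0 CPM to 111, 121 and 115 CPM in wild type. Slc16a1, at 119 and 125 CPM in wild-type mES cells, was higher by 1.74 in wild type, and Egln3 was higher by 1.32 in Hox-/-. Ndrg1 was lower in Hox-/- endoderm by 2.09 log2 units. No endoderm library overlapped with an mES library of its genotype in these members. Ankrd37, an ankyrin repeat gene induced by HIF, was called only in these comparisons among the 11 that are not interactions (-1.39 in wild type).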

How the data were processed

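Whole-number counts per Ensembl gene and FPKM values were used as deposited for 22 libraries; per the submitters' processing notes, reads were handled with cutadapt 1.16, STAR and Cufflinks 2.2.1 on mm10. Which tool counted reads, and whether it used the strand that the library kit preserves, is not given in the sources used here. Pfkp, Pfkm, Slc16a3 and Ankrd37 overlap Pitrm1, Senp1, Csnk1d and Ufsp2 on the opposite strand, so their counts may include reads of those genes. The FPKM values were made by the authors and divide by transcript length and depth, with factors not given in the sources used here. Tables hold 55055 genes for mES cells and endoderm and 55141 for gastruloids; the wild-type Activin A libraries are identical in both gastruloid tables (0 of 55141 genes differed) and were used once.

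Counts were filtered with filterByExpr, scaled with TMM and fitted across all genes with edgeR 4.0.16 quasi-likelihood tests (R 4.3.3), in separate fits for mES cells, endoderm, Activin A gastruloids and wild-type gastruloids, and in a joint fit of mES cells and endoderm for differentiation and its interaction. The p-values were adjusted by the Benjamini-Hochberg method over all genes tested, and a gene was called at an adjusted p under 0.05. Values are CPM from total counts and log2 fold changes with SE. Where CPM and fold change differ in size, TMM scaling is the difference. Alternatives were DESeq2 1.42.0, limma 3.58.1 on log2(FPKM + 1) and log2(FPKM + 0.1), other scalings and filters, fits of only the groups compared, replicate blocks and leaving out each library. The fits were also run on simulated counts with the same spread in every gene and group. Spread between the real replicates was uneven, so that run does not test it, and no result here draws on it.

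Named in each comparison were up to 5 called members per direction with the largest fold change and no overlap between libraries, and every library's value was given for members called past 2-fold in at least 3 of 11 comparisons. Up to 3 genes were named from each further pathway list, of which 1 gene is not reported here. Other members and values were added as description after they were seen. The members and lists were chosen with earlier results of these data known. Promoters and coordinates are those of RefSeq and of GENCODE vM21 on GRCm38.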

Additional observations from a re-analysis of the deposited data

Results flagged for a closer look

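Differences between effects were tested for the members as interaction terms of edgeR's quasi-likelihood fits, and those called with a log2 difference of at least 1 in size are given here with their SE and adjusted p. Between the genotype effects of Activin A gastruloids at 120 h and at 96 h, the difference was -2.16 ± 0.06 for Slc2a3 (adjusted p = 6.75e-33), -1.669 ± 0.059 for Slc2a1 (1.62e-28), -1.32 ± 0.07 for Vegfa (1.03e-20) and -1.118 ± 0.059 for Slc16a1 (1.33e-21). At 96 h the Hox-/- libraries were above the wild-type libraries for Slc2a1 and Slc2a3, and at 120 h they were below.

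Between the effects of Activin A over Chiron at 120 h and at 96 h, the difference was -4.461 ± 0.19 for Ndrg1 (adjusted p = 6.91e-15), 2.235 ± 0.17 for Aldoc (1.77e-10), -1.733 ± 0.096 for Ldhb (7.84e-13), 1.462 ± 0.092 for Slc2a3 (7.96e-12), 1.317 ± 0.093 for Vegfa (6.37e-11) and 1.055 ± 0.28 for Eno2 (0.00435). Ndrg1, Ldhb, Aldoc and Slc2a3 changed sides between the times.

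Between the genotype effects of endoderm and of mES cells, the difference was -1.555 ± 0.12 for Pfkp (adjusted p = 7.24e-09), -1.287 ± 0.087 for Slc16a1 (1.84e-09), -1.205 ± 0.13 for Aldoc (8.46e-07), -1.179 ± 0.16 for Ndrg1 (2.57e-05), -1.119 ± 0.22 for Eno2 (0.00109) and -1.105 ± 0.065 for Slc2a3 (3.32e-10). Pfkp, Slc16a1, Aldoc, Ndrg1 and Slc2a3 were called higher in Hox-/- mES cells and lower in Hox-/- endoderm. The Pfkp value carries the doubt about Pitrm1 reads given for endoderm. Culture and count table cannot be told apart in any of these differences.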

How the results depend on the processing

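Of the 332 called member results, 329 kept their sign and 251 their call under every alternative run. The count of members called between genotypes in mES cells, 21, was 13 with DESeq2, 4 with limma on FPKM at a pseudocount of 1 and also 4 at 0.1, and 11 to 22 when each library was left out in turn. In Activin A gastruloids at 96 h the count of 23 was 15 and 13 with the 2 limma fits (7 higher and 8 lower, and 7 and 6), which tested 30 of the 32 members. There Gpi1 turned from 0.098 to -0.02 and -0.021. Offsets for GC content and length, added after the data were seen, turned Pfkl to 0.095 and Pkm to 0.146 at 96 h between genotypes, Pgam1 to 0.094 and Ankrd37 to 0.916 over time in Hox-/-, and Pdk1 to -0.023 and Bnip3 to 0.205 in Hox-/- endoderm over mES cells. They also made the endoderm split 8 higher and 15 lower and the genotype by differentiation split 3 and 17, and DESeq2 made the wild-type Activin A time split 4 and 20. The cause was not tested. Leaving out each library gave 16 to 20 members in endoderm and 21 to 24 in Activin A gastruloids at 120 h.

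Deviations of same-numbered replicates from their group had correlations from -0.203 to 0.197. In groups of 2 libraries the 2 deviations mirror each other, so these values cannot show whether same-numbered replicates shared a preparation. With the replicate as a block the counts were 22 in mES cells, 19 in endoderm, 23 and 24 in Activin A gastruloids at 96 h and 120 h, 26 and 25 between treatments, 29, 28 and 27 over time, 29 and 31 over differentiation, and 22, 17 and 18 for the interactions. Replicates differed by more than sampling noise, with chi-square per degree of freedom from 1.37 to 10.3, so their spread exceeds counting error.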

Other observations

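Genes around the members changed with time and culture as well. Of 10 genes tested for pyruvate entry and pyruvate dehydrogenase, 6 were lower and 1 higher at 120 h than at 96 h in wild-type Activin A gastruloids, 7 lower and 2 higher in Hox-/- Activin A gastruloids and 6 lower and 2 higher in Chiron gastruloids. Pdha1, the catalytic subunit of pyruvate dehydrogenase, was at 218 ± 0.20 CPM at 96 h and 98.5 ± 2.5 CPM at 120 h in wild type with Activin A and at 239 ± 11 and 111 ± 2.5 CPM with Chiron (SD, n = 2 each). Mpc1, a subunit of the mitochondrial pyruvate carrier, fell with Activin A by 1.03 log2 units and rose with Chiron by 0.90. Of 7 pentose phosphate genes, 5 were lower in wild-type Activin A gastruloids at 120 h and 1 was higher.

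Tissue-restricted isoenzymes were higher with Activin A than with Chiron. At 120 h Pgam2, the muscle-type phosphoglycerate mutase, was at 6.86 ± 0.54 against 0.274 ± 0.087 CPM (SD, n = 2 each) and Hkdc1 at 9.20 ± 0.90 against 1.23 ± 0.67 CPM, and 5 of 7 tested isoenzymes of this list were called higher and none lower. Epas1 was at 19.7 ± 3.1 against 3.87 ± 0.38 CPM. In wild-type endoderm Pgam2 was at 44.4 ± 5.9 CPM (n = 3) against 2.07 ± 0.18 CPM (n = 2) in mES cells, and Pgf at 18.2 ± 1.1 against 0.399 ± 0.095 CPM. Arnt2, a partner subunit of HIF, was higher in endoderm by 2.15 log2 units in wild type and by 3.49 in Hox-/-.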
